A study of Mus musculus with 32 samples.

Results

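The proximal part of the D2-derived segment on mouse chromosome 11 was described through 36 genes, from *Rufy1* to *Acsl6*. The members are a given list of genes that lie along chromosome 11 of mm9 from 50202788 to 54178258, a span of 3975471 bp; other genes of the same span, such as *Irf1* and *Zfp2*, are not on it. They make up 36 of the 23420 genes in the count files, and all 36 passed the filter on low counts that left 15589 genes for testing. Striatal RNA of 16 naive mice was sequenced to ask which transcripts differ in a congenic line bred to narrow a locus for the locomotor response to methamphetamine. Each mouse is a single sample, for which tissue punches of the left and right striatum were pooled. Between 19032826 and 33748353 reads per mouse fell on genes in B6 mice and between 24912413 and 32085311 in congenic mice.

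The control group was 8 C57BL/6J (B6) mice. The other group was 8 mice of Line 4a, called congenic mice here. They are B6.D2 congenic animals that carry the DBA/2J (D2) segment on a single copy of chromosome 11, on a B6 background. The paper reports a D2-derived marker on another chromosome, seen in wild-type and heterozygous congenic mice alike. The mice of both genotypes were untreated and, per the labels, about 50 days old. Each Line 4a value therefore sums a B6 and a D2 allele, which counts per gene do not separate. The D2 segment runs on past *Acsl6*, so a difference of a member cannot be assigned to its own allele: it cannot be told apart from an effect of other genes of the segment. Home cage and sex of single mice were not used here. Fewer cells of a type and less RNA per cell cannot be told apart in bulk tissue.

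A congenic line places a chromosome segment of a donor strain on the genome of another strain by repeated backcrossing and selection with markers. Variants inside the segment can act on the expression of nearby genes from the same chromosome copy (in cis), while genes elsewhere can be reached only through a product of the segment (in trans). The genes of this stretch of chromosome 11 have no shared pathway, and include KRAB zinc finger genes, part of the COPII vesicle coat, ubiquitin ligase parts, carnitine transporters and the brain-enriched acyl-CoA synthetase *Acsl6*.

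The libraries carried the markers of striatum. Over the 13 marker genes of striatal projection neurons found in the files, the summed level was 6270 to 9250 CPM (the read count normalized to library size, with TMM scaling) in the B6 group (median 7120) and 6840 to 7910 in the congenic group (median 7790). None of these markers was at 0, and *Pde10a* was the most abundant. Markers of cortical glutamatergic neurons were present too. In edgeR's quasi-likelihood test 9 of 14 had an unadjusted p under 0.05, all 9 lower in Line 4a, where 801 of all 15589 genes were lower at that p, and 0 of 14 passed a false discovery rate (FDR) of 20%. The likelihood ratio test of edgeR had 10 at an unadjusted p under 0.05 and 6 at that rate, and the Wald test of DESeq2 10 and 8. The median log2 fold change of this list was −0.43 (−0.48 in the 14 mice described next). Their summed level was 1700 to 2500 CPM in the B6 group (median 1970) and 1400 to 2360 in the congenic group (median 1700). *Nrgn* was the most abundant of them and had nearly the same mean in the genotypes, 1030 CPM in B6 and 1040 in Line 4a, and none of the 14 was at 0.

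A pair of libraries stood apart from the rest by their read shares, before any gene is considered. In Line 4a mouse 1, 27.3% of the reads in the files had several alignments, against 20.4% to 21.1% in the other congenic mice, and 10.2% lay in no annotated exon. In B6 mouse 8, 11.3% lay in no annotated exon, against 14.8% to 15.9% in the other B6 mice. These libraries also stood out in the members. Line 4a mouse 1 had the highest or the lowest value of its genotype for 30 of the 36 members, and B6 mouse 8 for 22, while each of the other 14 mice did so for 3 to 9 members. Over all genes tested the shares were 73.8% and 52.2%, against 13.3% to 25.2% in the other mice. Results are therefore given for all 16 mice and for the 14 mice that remain without this pair, an alternative chosen after seeing the data.

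**Figure D1:**
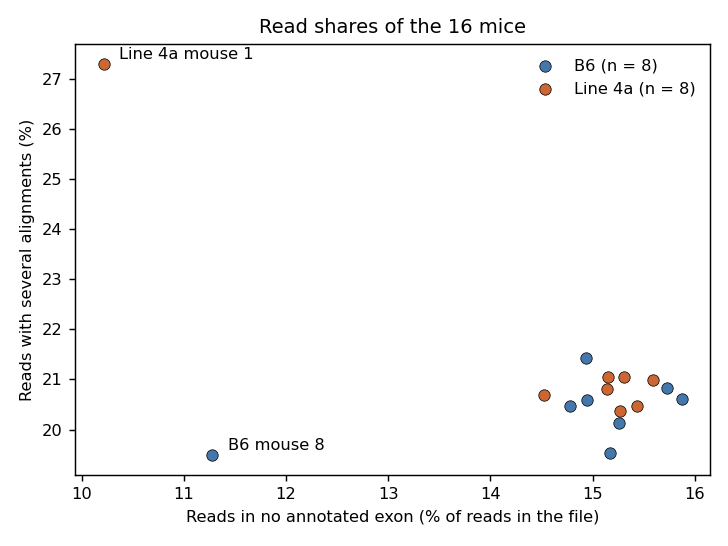
Each point is a mouse, placed by the percent of reads in no annotated exon (x axis) and the percent of reads with several alignments (y axis), coloured by genotype. Line 4a mouse 1, at 10.2% and 27.3%, and B6 mouse 8, at 11.3% and 19.5%, lie apart from the other 14 mice.

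With all 16 mice, 5 of the 36 members (13.9%) had an unadjusted p under 0.05 in edgeR's quasi-likelihood test, against 10% of all genes tested. They were *9230009I02Rik* and *Zfp354c*, with lower means in Line 4a, and *Phf15*, *Clk4* and *Pdlim4*, with higher means. At an FDR of 20% the same test of edgeR, adjusted by Benjamini-Hochberg over all 15589 genes, called 0 of the 36, against 0.0192% of all genes, and at 5% it called 0, against 0.00641%, beside the 5 at an unadjusted p under 0.05. The likelihood ratio test of edgeR and the Wald test of DESeq2 had 5 and 6 members at an unadjusted p under 0.05, against 9.6% and 10.3% of all genes. Each called *9230009I02Rik* alone of the members at both rates, where they called 186 and 264 of all genes at 20% and 20 and 25 at 5%, against 3 and 1 by quasi-likelihood. For *9230009I02Rik* they gave FDRs of 0.00101 and 9.52e-04 (0.209 in the quasi-likelihood test, 9.52e-04 to 0.862 over all alternatives) and a log2 fold change of −0.95, lower in 8 of 8 congenic mice than the B6 median. The count of 5 became 7 without Line 4a mouse 1, 3 without B6 mouse 6 and 2 without Line 4a mouse 8, where the share of all genes was 13.4%, 9.39% and 7.89%. Without Line 4a mouse 1 the members added were *Hnrnpab*, *Sar1b*, *Ppp2ca* and *Shroom1*, and those lost were *Clk4* and *Pdlim4*. The count of 0 became 1 without each of B6 mice 4, 7 and 8 and Line 4a mice 1 and 2, where the count over all genes went from 3 to 84, 90, 5, 8 and 114. The mean was lower in Line 4a for 20 members and higher for 16, where 45.1% of all genes were lower. That balance depended on the scaling: 21 members were lower with RLE normalization and 15 with upper-quartile normalization. The median log2 fold change of the members was −0.008, against 0.01 over all genes (−0.011 against 0.009 with RLE and 0.005 against 0.024 with upper-quartile normalization). Of the 36, 22 lay within 0.1 of 0, as did 9786 of all 15589 genes tested.

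Without Line 4a mouse 1 and B6 mouse 8, 9 members (25.0%) had an unadjusted p under 0.05, against 12.8% of all genes. The members added were *Adamts2*, *Col23a1*, *Tcf7* and *Kif3a*. At an FDR of 20% there were 2 members, *Phf15* and *9230009I02Rik*, against 0.0897% of all genes, and the same 2 passed 5%, against 0.0449%. These 2 were also the members whose genotypes did not overlap in the 14 mice, against 0.135% of all genes. With all 16 mice the genotypes overlapped for every member, where 0.0577% of all genes had no overlap. The median standard error (SE) of the members' log2 fold changes went from 0.08 to 0.05 when the pair was left out, and their median log2 fold change from −0.008 to −0.05. Over all genes tested the median SE went from 0.08 to 0.06 and the median log2 fold change from 0.01 to −0.002.

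**Figure D2:**
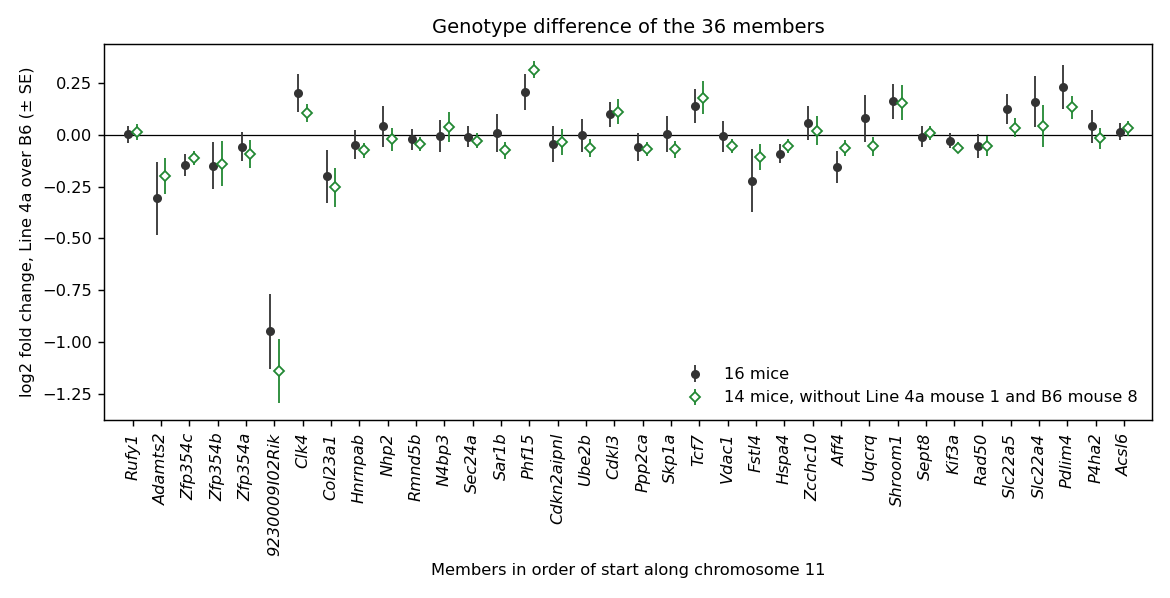
Points are log2 fold changes of Line 4a over B6 from edgeR's quasi-likelihood fit, with their SEs, for the 36 members in the order of their starts along the chromosome; filled circles use 16 mice and open diamonds 14 mice. *9230009I02Rik* lies lowest, at −0.95 and −1.14, and *Phf15* highest among the 14 mice, at 0.31.

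Set beside the rest of chromosome 11, the share of members at an unadjusted p under 0.05 was 13.9% with 16 mice. It was 18.2% of 11 other tested genes, which are those of the same stretch and *Hnrnph1*, 2757 bp before it. It was 19.2% of 26 genes in the 2 Mb before that gene, 23.9% of 46 in the distal D2 segment, 12.1% of 107 in the 10 Mb after the congenic interval, 106 of 964 genes on the rest of the chromosome and 9.93% of 13300 on other chromosomes. With 14 mice the order was another: the share was 25.0% of the members, 9.09% of the 11 other genes, 11.5% of the 26 before, 21.7% in the distal segment, 11.3% of 106 after the interval, 119 of 964 genes on the rest of the chromosome and 12.9% of 13309 on other chromosomes. Among the other genes of the stretch, *9530068E07Rik* had a log2 fold change of −0.11 (SE 0.05, FDR 0.467, lower than the B6 median in 7 of 8 congenic mice) and the interferon regulatory factor *Irf1* of 0.55. In the 14 mice *9530068E07Rik* was at −0.12 with an FDR of 0.174 by the same fit (0.174 to 0.882 over the alternatives), and its genotypes did not overlap there, with B6 mice at 89.9 to 91.8 CPM and the congenic group at 80.3 to 87.7. The value of *Irf1* depended on Line 4a mouse 1, at 19.5 CPM, and was 0.20 without that mouse and 0.15 without the pair. With 16 mice all 3 genes of the genome at an FDR of 20% in the quasi-likelihood test lie in the distal D2 segment, not among the members. No test was made between these regions.

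Levels of the members covered a 225-fold range per length of exon. In B6 mice *Vdac1*, the main channel of the outer mitochondrial membrane, was highest at 200 CPM per kb of annotated exon, followed by *Skp1a* at 153 and *Ube2b* at 81.7. *Adamts2* was lowest at 0.889 CPM per kb, next to *Zfp354b* at 0.922. The median member stood at 8.56 CPM per kb, against 6.31 over the 14490 tested genes with an annotated length, and 19 members were above that median. All 36 had at least 23 counts in every mouse. The spread between B6 mice, as the coefficient of variation, had a median of 8.25% over the members, from 2.87% for *Acsl6* to 22.6% for *Col23a1*. Without B6 mouse 8 the median was 6.77% and the highest value 15.3%, for *Shroom1*. In Line 4a the median of the members was 10.8%, which was 5.19% without mouse 1. There *9230009I02Rik* varied most, at 34.3%.

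**Figure D3:**
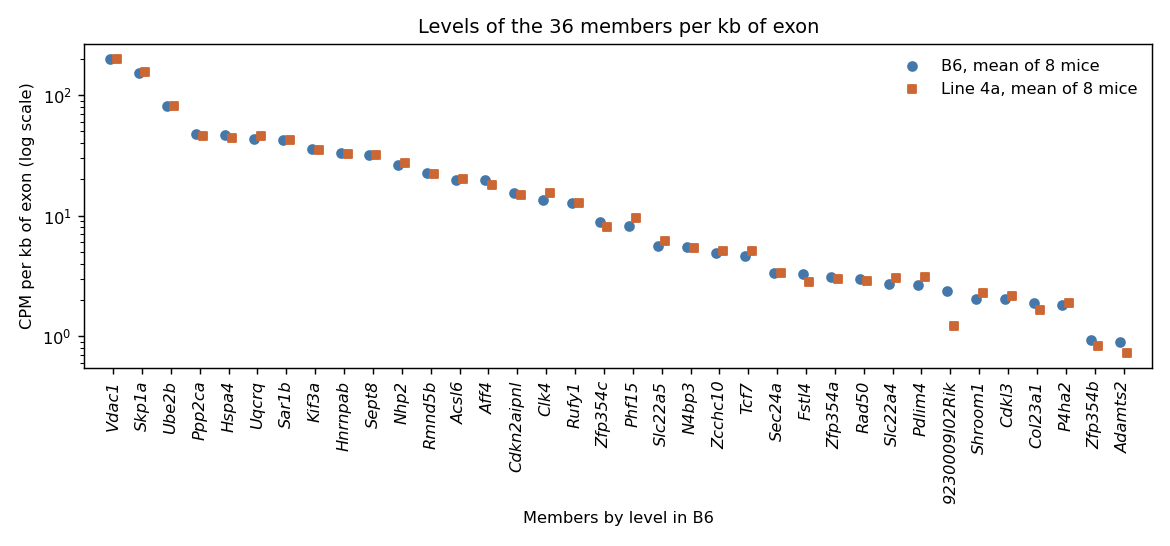
Each member's mean level in CPM per kb of annotated exon (log axis) in B6 (circles) and Line 4a (squares), n = 8 mice each, ordered by the level in B6. *Vdac1* is at the top with 200 and *Adamts2* at the bottom with 0.889 in B6, and the genotypes lie close together for most members, with *9230009I02Rik* the widest gap.

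The largest group of members was 8 genes of transcription, chromatin and DNA repair, 5 with lower and 3 with higher means in Line 4a. *Phf15* (now named *Jade2*), a PHD finger protein that works with a histone acetyltransferase complex, lies on the minus strand from 51626957 to 51671155. Its level ran from 79.6 CPM through a median of 86.7 to 109 in B6 mice, and from 70.0 through 106 to 116 in congenic mice. B6 mouse 8 was the highest B6 mouse and Line 4a mouse 1 the lowest of all 16, and without these 2 libraries the genotypes did not overlap. In all, 7 of 8 congenic mice were above the B6 median. The other 14 mice had B6 values of 79.6 to 98.8 CPM and congenic values of 103 to 116. The log2 fold change was 0.20 (SE 0.09), with an FDR of 0.463 by edgeR's quasi-likelihood fit, and exact permutation of the genotypes over the 16 mice gave p = 0.0587 (two-sided, adjusted p 0.436 over all genes). In the 14 mice, where all 7 congenic mice were above all 7 B6 mice, it was 0.31 (SE 0.04, FDR 0.00404 by the same fit), and over the alternatives the FDR ran from 0.00404 to 0.862. The unadjusted p with 16 mice was no longer under 0.05 without B6 mouse 5 (log2 fold change 0.19), B6 mouse 6 (0.18) or Line 4a mouse 4 (0.19), 6 (0.19) or 8 (0.18). With a score of the cortical markers as a covariate the log2 fold change was 0.13, and among the 4 mice per genotype of lanes 5 and 6 it was 0.18. In neither was the unadjusted p under 0.05, and the part of those markers was not tested further.

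The 3 zinc finger genes *Zfp354c*, *Zfp354b* and *Zfp354a* are paralogs of the KRAB class, whose proteins bind DNA and recruit repressors. They lie near each other, with gaps of 94098 and 127623 bp between them, where other genes such as *Zfp2* also lie. *Zfp354c* ran from 47.1 through 49.5 to 51.6 CPM in B6 mice and from 35.6 through 45.5 to 49.2 in congenic mice. Every congenic mouse lay under the B6 median and 7 of 8 lay under every B6 mouse, with Line 4a mouse 1 lowest. The log2 fold change was −0.15 (SE 0.05), with an FDR of 0.407 by edgeR's quasi-likelihood fit (0.237 to 0.862 over the alternatives), and p by exact permutation was 0.0014 (two-sided, 0.254 adjusted over all genes). Without the pair of libraries it was −0.11 (SE 0.03), and with the cortical score as a covariate −0.15. The unadjusted p was no longer under 0.05 with that covariate or within lanes 5 and 6 (log2 fold change −0.18). *Zfp354b* ran from 2.29 through 2.67 to 3.21 CPM in B6 mice and from 1.85 through 2.38 to 3.17 in congenic mice. *Zfp354a* ran from 12.1 through 13.1 to 16.2 CPM and from 11.1 through 13.2 to 14.3. The genotypes overlapped for both, with log2 fold changes of −0.15 (SE 0.11) and −0.06 (SE 0.07), which were −0.14 and −0.09 in the 14 mice and 0.005 and 0.015 with the cortical score as a covariate. Per kb of exon *Zfp354c* was the highest of the 3 in B6 mice, at 8.85 CPM, against 3.11 and 0.922 for *Zfp354a* and *Zfp354b*. Reads that fit more than 1 of these paralogs equally well were left out of the counts.

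**Figure D4:**
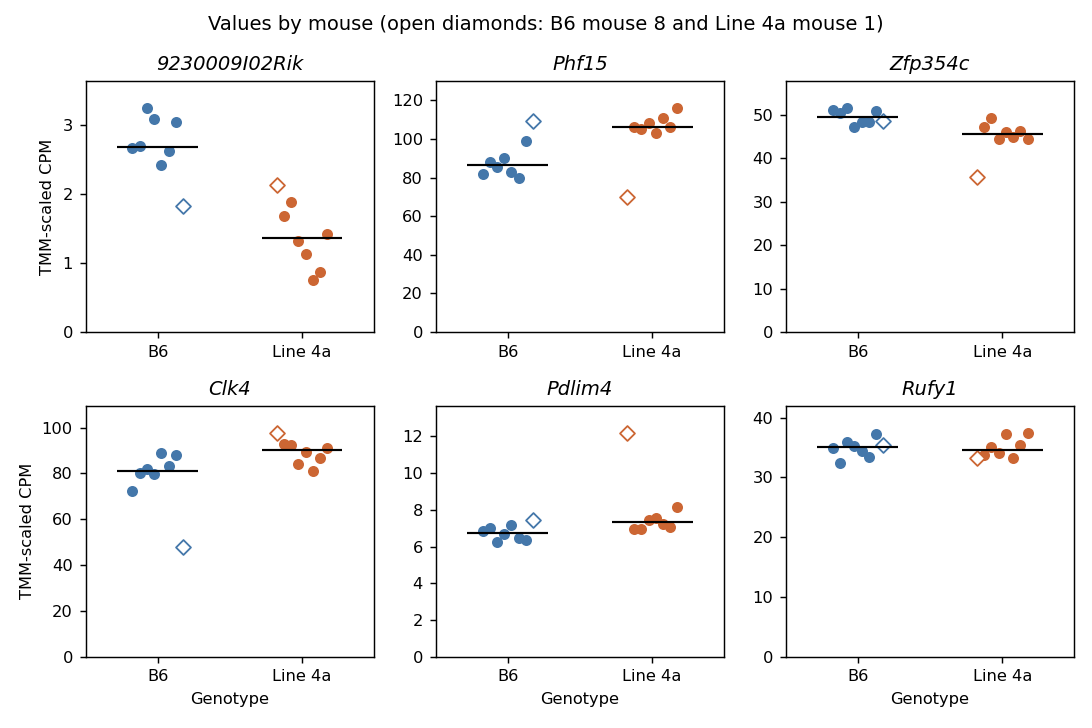
TMM-scaled CPM of each mouse for 6 members, by genotype; lines are medians of 8 mice, and open diamonds mark B6 mouse 8 and Line 4a mouse 1. For *Phf15* and *9230009I02Rik* the filled points of the genotypes do not overlap, and for *Rufy1* the medians are 35.0 and 34.6 CPM.

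The other 4 genes of this group did not reach an unadjusted p of 0.05 in the quasi-likelihood test of 16 mice. *Tcf7*, a transcription factor of the Wnt pathway, had a log2 fold change of 0.14 (SE 0.08) with 16 mice and 0.18 with 14. With the cortical score as a covariate it was −0.03. *Aff4*, a scaffold of the super elongation complex, had means of 266 ± 20.8 and 239 ± 31.1 CPM (SD, 8 mice each, B6 first) in the genotypes, and Line 4a mouse 1 was lowest at 166. Its p was 0.0629 in that test (FDR 0.521, lower than the B6 median in 7 of 8 congenic mice) and 0.0381 by exact permutation (two-sided, 0.396 adjusted over all genes). Without Line 4a mouse 1 its log2 fold change went from −0.15 to −0.09, and without the pair to −0.06. *Rad50*, of the DNA break repair complex, and *Zcchc10*, a zinc knuckle protein, had log2 fold changes of −0.06 (SE 0.06) and 0.06 (SE 0.08). *Rad50* was at −0.05 in the 14 mice and at −0.03 without B6 mouse 3. *Zcchc10* was at 0.02 in the 14 mice, 0.004 without Line 4a mouse 1 and 0.115 with the cortical score in the model.

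*9230009I02Rik* had the largest difference of all members. It lies on the plus strand from 50898589 to 50905335, 12287 bp past *Zfp354a*; the mm9 annotation calls it protein coding, and RefSeq calls it a long non-coding RNA. It ran from 1.83 through 2.68 to 3.25 CPM in B6 mice and from 0.763 through 1.37 to 2.13 in congenic mice. None of the 8 congenic mice reached the B6 median, and 6 lay under the lowest B6 mouse. B6 mouse 8 was the lowest of its genotype and Line 4a mouse 1 the highest of its own, and in the other 14 mice the ranges of 2.42 to 3.25 and 0.763 to 1.89 did not overlap. Counts were low, from 56 to 102 per mouse in B6 and from 23 to 68 in Line 4a, which limits the precision of each value. The log2 fold change was −0.95 (SE 0.18), a level 0.518 times that of B6 mice, with an FDR of 0.209 by edgeR's quasi-likelihood fit. By exact permutation p was 4.66e-04 (two-sided, 0.254 adjusted over all genes, the lowest adjusted value that any gene had). In the 14 mice it was −1.14 (SE 0.155, FDR 0.00465 by the same fit), with the FDR between 9.52e-04 and 0.862 over the alternatives. Leaving out single mice took it under an FDR of 20% without B6 mouse 4 (log2 fold change −0.92), 7 (−0.93) or 8 (−1.02) or Line 4a mouse 1 (−1.07) or 2 (−0.99). Among the 4 mice per genotype of lanes 5 and 6 it was −0.73 and among those of lanes 7 and 8 −1.22, and with the cortical score as a covariate −0.85.

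The genes of RNA processing were *Clk4*, *Hnrnpab*, *Nhp2* and *Cdkn2aipnl*. *Clk4*, a kinase that acts on SR splicing factors, lies 169896 bp past *9230009I02Rik*. It ran from 48.0 through 81.0 to 88.8 CPM in B6 mice and from 81.2 through 90.1 to 97.8 in congenic mice. B6 mouse 8 lay far below the other B6 mice and Line 4a mouse 1 was the highest of all, and 5 congenic mice were above every B6 mouse. The log2 fold change was 0.20 (SE 0.09), with an FDR of 0.476 by edgeR's quasi-likelihood fit (0.33 to 0.862 over the alternatives), higher in 8 of 8 congenic mice than the B6 median, and exact permutation gave p = 0.00948 (two-sided, 0.286 adjusted over all genes). Without B6 mouse 8 it was 0.12 and in the 14 mice 0.10 (SE 0.04). The unadjusted p was no longer under 0.05 without B6 mouse 1 (log2 fold change 0.19) or Line 4a mouse 1 (0.18), 2 (0.20), 3 (0.20), 5 (0.20) or 8 (0.20). Nor was it with the second lane of each mouse alone (0.17), with the cortical score as a covariate (0.19) or within lanes 7 and 8 (0.18). *Hnrnpab*, an RNA-binding protein, was at 100 ± 8.99 and 96.9 ± 12.2 CPM, and *Nhp2*, of the H/ACA ribonucleoproteins, at 30.2 ± 3.20 and 31.0 ± 6.14 CPM (SD, 8 mice of each genotype, B6 first). Line 4a mouse 1 was the highest of its genotype for both, and without the pair their log2 fold changes were −0.07 and −0.02. *Cdkn2aipnl* had a log2 fold change of −0.04 (SE 0.09), which was −0.10 without Line 4a mouse 1 and 0.015 without B6 mouse 8. In the mm9 annotation, exons of *Hnrnpab* overlap those of *Agxt2l2* over 26.9% of their length. If the gene set used for counting has the same overlap, counting without strand leaves reads there to neither gene. Reads from a gene and an antisense partner cannot be told apart.

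Promoters from RefSeq (GRCm38.p6, 250 bases before to 50 after the first listed start) were matched for 28 of the 36 members. The entries not matched were *Zfp354a*, *Zfp354c*, *9230009I02Rik*, *Phf15*, *Cdkl3*, *Uqcrq*, *Shroom1* and *Rad50*. Those of *Clk4* (plus strand, chr11:51262864-51263163) and *Pdlim4* (minus strand, chr11:54068968-54069267) are shown because these are the members with an unadjusted p under 0.05 for which the table has an entry. Capitals mark motifs that were searched on both strands. The cAMP response element, TGACGTCA, and the E-box, CACGTG, read the same on either strand. The GC box was searched as GGGCGG and, for the other strand, as CCGCCC. The CCAAT box was searched in the same way, as CCAAT and its reverse complement ATTGG.
Clk4: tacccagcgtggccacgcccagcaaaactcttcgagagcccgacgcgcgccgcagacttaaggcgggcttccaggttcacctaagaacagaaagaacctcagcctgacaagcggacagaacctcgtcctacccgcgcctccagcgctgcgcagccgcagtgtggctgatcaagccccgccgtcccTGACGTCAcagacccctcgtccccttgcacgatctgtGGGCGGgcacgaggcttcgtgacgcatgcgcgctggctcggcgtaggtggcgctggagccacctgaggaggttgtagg
Pdlim4: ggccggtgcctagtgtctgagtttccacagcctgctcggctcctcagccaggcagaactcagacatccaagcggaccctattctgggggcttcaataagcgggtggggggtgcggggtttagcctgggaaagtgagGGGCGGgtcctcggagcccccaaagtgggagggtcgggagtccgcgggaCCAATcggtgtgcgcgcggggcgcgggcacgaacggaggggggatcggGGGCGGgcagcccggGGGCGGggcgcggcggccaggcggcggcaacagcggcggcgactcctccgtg
TGACGTCA was present in 5 of the 28 (*Clk4*, *Ube2b*, *Ppp2ca*, *Skp1a* and *Fstl4*), against 1.88% of the promoters of all 27025 genes in the table. CACGTG was in 5 of 28 against 7.24%, GGGCGG in 18 against 35.9% and CCAAT in 8 against 37.9%. All 36 members passed the filter on low counts, while the promoter table also holds genes that did not, so these sets are unlike. A match is a description of the letters and was not tested as a site.

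*Rufy1*, a protein of early endosomes and the first member of the stretch, had nearly the same mean in the genotypes. It ran from 32.4 through 35.0 to 37.3 CPM in B6 mice and from 33.2 through 34.6 to 37.5 in congenic mice, and 4 congenic mice lay on either side of the B6 median. The log2 fold change was 0.0017 (SE 0.04), with an FDR of 0.991 by edgeR's quasi-likelihood fit and p = 0.977 by exact permutation (two-sided), and it turned to −0.001 with RLE normalization. *Sec24a* and *Sar1b*, the cargo adaptor and the small GTPase of the COPII coat that carries proteins out of the endoplasmic reticulum, had log2 fold changes of −0.009 (SE 0.05) and 0.008 (SE 0.09). For *Sar1b* Line 4a mouse 1 was at 79.4 CPM against 46.9 to 51.6 in the other congenic mice, and without the pair the log2 fold change was −0.08.

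The 4 genes of matrix and secreted proteins lay below the members' median level per kb, and in the 14 mice all 4 had lower means in Line 4a, with a median log2 fold change of −0.15. With all 16 mice the medians were −0.21 for these 4 and −0.008 for all members, and *P4ha2* had a higher mean. *Adamts2*, the protease that trims procollagen, ran from 6.87 through 8.20 to 9.83 CPM in B6 mice and from 2.32 through 7.25 to 8.22 in congenic mice. Line 4a mouse 1 was far below the rest, and 7 of 8 congenic mice were below the B6 median. On the log2 scale the fold change was −0.31 (SE 0.18), with an FDR of 0.564 by edgeR's quasi-likelihood fit (unadjusted p 0.0976) and p = 0.0451 by exact permutation (two-sided, 0.410 adjusted over all genes), and in the 14 mice −0.20 (SE 0.09). Without Line 4a mouse 1 it was −0.18, and −0.44 with the cortical score in the model. *Col23a1*, a transmembrane collagen, ran from 6.32 through 11.1 to 13.6 CPM and from 8.12 through 9.32 to 11.5, with B6 mouse 8 lowest, and had log2 fold changes of −0.20 and, in the 14 mice, −0.25 (SE 0.13 and 0.10). For *Fstl4*, a secreted follistatin-like protein, mouse 1 of Line 4a was at 4.77 CPM against a B6 mean of 14.3 ± 0.970 (SD, n = 8), and the log2 fold change went from −0.22 to −0.11 without the pair. *P4ha2*, a collagen prolyl hydroxylase, was at 11.4 ± 1.55 and 11.8 ± 0.649 CPM (SD, 8 mice each, B6 first).

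The ubiquitin, phosphatase and mitochondrial genes include *Vdac1*, *Skp1a*, *Ube2b* and *Ppp2ca*, the highest members per kb, and none had an unadjusted p under 0.05 in the quasi-likelihood test of 16 or of 14 mice. With Line 4a mouse 1 alone left out, *Ppp2ca* was under 0.05. *Ube2b*, a ubiquitin-conjugating enzyme, was at 174 ± 14.4 and 173 ± 26.6 CPM, and *Skp1a*, the adaptor of SCF ubiquitin ligases, at 338 ± 27.8 and 340 ± 61.3 (SD, 8 mice of each genotype, B6 first). *Rmnd5b*, of the CTLH ligase, had a log2 fold change of −0.02 (SE 0.05). *Vdac1* ran from 484 through 505 to 598 CPM in B6 mice and from 478 through 500 to 700 in congenic mice, where Line 4a mouse 1 alone was above 509. It had a log2 fold change of −0.008 (SE 0.07). *Uqcrq*, a subunit of respiratory complex III, was at 139 CPM in Line 4a mouse 1 and at 71.5 to 81.0 in the other congenic mice. In the 14 mice the log2 fold changes of *Ube2b*, *Skp1a*, *Vdac1* and *Uqcrq* were −0.07, −0.07, −0.05 and −0.06.

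*Ppp2ca*, the catalytic subunit of protein phosphatase 2A, was at 433 CPM in B6 mouse 8 and 432 in Line 4a mouse 1, both above the rest of their genotypes. Its log2 fold change was −0.06 (SE 0.07), −0.11 without that Line 4a mouse and −0.02 without that B6 mouse. In the mm9 annotation 41.1% of its exon length is shared with other annotations. *Cdkl3*, a kinase, and *N4bp3*, a partner of the ubiquitin ligase Nedd4, had log2 fold changes of 0.10 (SE 0.06) and −0.01 (SE 0.08). With the cortical score in the model these were 0.02 and −0.07, and in the 14 mice 0.11 and 0.04. *Hspa4*, a chaperone of the Hsp110 family, was at 258 ± 15.8 CPM in B6 mice and 242 ± 12.9 in congenic mice (SD, 8 mice each, B6 first), with a log2 fold change of −0.09 (SE 0.05). Without the pair it was −0.05.

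Among the genes of the cytoskeleton, *Pdlim4*, a PDZ and LIM protein of actin filaments, had the highest log2 fold change of the members with all 16 mice. It ran from 6.22 through 6.75 to 7.43 CPM in B6 mice and from 6.93 through 7.34 to 12.2 in congenic mice. Each congenic mouse exceeded the B6 median and 4 exceeded every B6 mouse, with Line 4a mouse 1 far above the others. Line 4a over B6, the log2 fold change was 0.23 (SE 0.10), with an FDR of 0.477 by edgeR's quasi-likelihood fit (0.338 to 0.862 over the alternatives), and exact permutation gave p = 0.0124 (two-sided, 0.299 adjusted over all genes). Without Line 4a mouse 1 it was 0.11 and without the pair 0.13 (SE 0.05). The unadjusted p was no longer under 0.05 without Line 4a mouse 1 or 8 (log2 fold change 0.23) or B6 mouse 1 (0.24), 3 (0.21), 4 (0.23), 6 (0.22) or 7 (0.22). Nor was it with the cortical score as a covariate, within lanes 5 and 6 or within lanes 7 and 8. *Shroom1*, an actin-binding protein, had a log2 fold change of 0.16 (SE 0.09) in both the 16 and the 14 mice, but 0.06 with the cortical score as covariate, 0.09 within lanes 5 and 6 and 0.23 within lanes 7 and 8. *Kif3a*, the motor subunit of kinesin-2, was at 210 ± 7.96 and 206 ± 7.81 CPM (SD, 8 mice each, B6 first), and its log2 fold change of −0.03 was −0.06 (SE 0.03) in the 14 mice. The septin *Sept8* had a log2 fold change of −0.01 (SE 0.05), and −0.10 with the cortical score as a covariate.

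*Slc22a5* and *Slc22a4*, paralogs that carry carnitine and ergothioneine across the plasma membrane, lie 91462 bp apart on the minus strand. Between them lies *Slc22a21*, which is not a member and was lower than the B6 median in 8 of 8 congenic mice. Its log2 fold change was −0.28 (SE 0.16, FDR 0.548 by edgeR's quasi-likelihood fit), and −0.31 in the 14 mice. *Slc22a5* ran from 13.5 through 17.9 to 18.7 CPM in B6 mice and from 17.0 through 18.3 to 22.7 in congenic mice. *Slc22a4* ran from 4.55 through 6.93 to 8.71 CPM and from 6.27 through 7.95 to 9.38. For both, B6 mouse 8 was the lowest B6 mouse and Line 4a mouse 1 the highest of all, and the genotypes overlapped. Their log2 fold changes were 0.13 (SE 0.07) and 0.16 (SE 0.12), and in the 14 mice 0.03 and 0.04. Without B6 mouse 8 they were 0.08 and 0.09, and 0.07 and −0.04 with the cortical score in the model. *Acsl6*, which activates long-chain fatty acids, was at 196 ± 5.63 and 198 ± 13.3 CPM (SD, 8 mice each, B6 first), with a log2 fold change of 0.015 (SE 0.04) that was 0.03 in the 14 mice and −0.04 with the cortical score as a covariate.

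The libraries that stood apart were also compared with the rest of their genotypes, member by member. Against the median of the other 7 mice of its genotype, Line 4a mouse 1 was higher for 18 members and lower for 18, and B6 mouse 8 was higher for 19 and lower for 17. They lay on the same side for 23 members and on opposite sides for 13. In Line 4a mouse 1 the lowest values by this measure were those of *Adamts2* and *Fstl4* (log2 differences of −1.655 and −1.53) and the highest that of *Uqcrq* (0.87). *Phf15* and *9230009I02Rik*, the members at an FDR of 20% without these libraries, were on opposite sides. For *Phf15* the values were −0.60 in Line 4a mouse 1 and 0.355 in B6 mouse 8, and for *9230009I02Rik* 0.69 and −0.56. The part of RNA quality in these values was not tested.

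**Figure D5:**
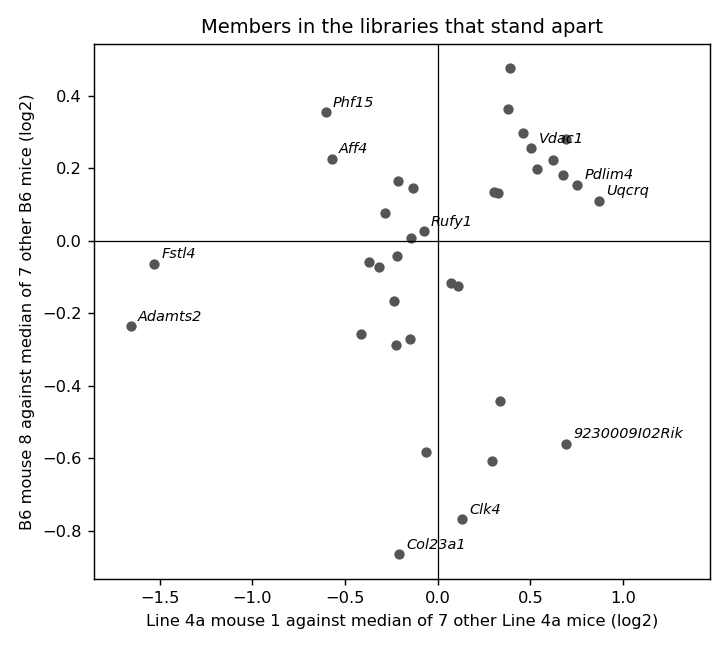
Each point is a member, placed by the log2 ratio of its CPM in Line 4a mouse 1 (x axis) and in B6 mouse 8 (y axis) to the median of the other 7 mice of the same genotype. Points far from 0 are members that these libraries shift most; *Adamts2* is at −1.655 in Line 4a mouse 1, and *Col23a1* at −0.865 in B6 mouse 8.

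The cortical score of each mouse, the mean standardized level of the cortical markers, was −0.385 to 1.31 in the B6 group (median 0.53) and −1.34 to 0.89 in the congenic group (median −0.43). With it as a covariate, 2 members had an unadjusted p under 0.05, *9230009I02Rik* and *Col23a1* (log2 fold changes of −0.85 and −0.35), against 3.18% of all genes, and the part of cortical tissue in the differences was not tested further. Mice numbered 1 to 4 in either group were sequenced on lanes 5 and 6, the rest on lanes 7 and 8. Within these pairs of lanes 2 and 5 members had an unadjusted p under 0.05, against 3.2% and 9.01% of all genes. In lanes 5 and 6 they were *9230009I02Rik* and *Clk4*. In lanes 7 and 8 they were *Zfp354c*, *9230009I02Rik*, *Hnrnpab*, *Phf15* and *Shroom1*. By log2 fold change *Phf15* was at 0.18 and 0.23, *Clk4* at 0.23 and 0.18, *Zfp354c* at −0.18 and −0.11 and *Pdlim4* at 0.33 and 0.12, the same direction in both.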

How the data were processed

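The authors deposited raw counts of reads per gene for each mouse and lane, from striatal total RNA. Per the submitters' processing notes and deposited scripts, reads were aligned to mm10 with TopHat and bowtie2 2.2.2 and counted by htseq-count 0.6.1p1, with its union rule and no use of strand. Reads with several alignments (19.5% to 27.3% of those in the files) or in no exon (10.2% to 15.9%) were left out. Tables of the authors' own comparison, with log2 fold changes, p-values and FDRs, were not used.

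Here the 31 lane files were summed per mouse, since lane files of 15 mice differed by sampling noise (chi-square per degree of freedom 0.997 to 1.051); for B6 mouse 7, 1 lane file was used. Genes were filtered with filterByExpr, normalized by TMM and fitted in edgeR 4.0.16 under R 4.3.3 (quasi-likelihood), and p-values were adjusted over all genes by Benjamini-Hochberg. The scripts were tested on simulated data. Single members were also compared by exact permutation over all 12870 splits of 8 against 8 mice, on log2 CPM with a prior count of 0.5. The smallest two-sided p this permutation test can give is 1.55e-04, and 0 of all genes passed an FDR of 20% by it. Its lowest adjusted value was 0.254. Positions and exon lengths came by symbol from the mm9 annotation (GENCODE), promoters from RefSeq (GRCm38.p6). All 36 members could be named; values by mouse were planned for members at an unadjusted p under 0.05, *Rufy1*, those of highest and lowest level and the *Zfp354* and *Slc22a* families, and those of other members were added after they were seen. Alternatives were RLE and upper-quartile scaling, other filters, DESeq2 1.42.0, the likelihood ratio test, a replicate block, lane terms and subsets, the cortical score and leaving out each mouse. Members and lists were chosen with earlier results of these data known.

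Cell markers were examined as lists. With 16 and then 14 mice, the median log2 fold change was 0.03 and 0.095 over 13 tested genes of striatal projection neurons, 0.11 and 0.03 over 8 of oligodendrocytes, 0.06 and 0.03 over 7 of astrocytes, 0.09 and 0.06 over 6 of microglia, 0.11 and 0.13 over 6 of endothelial and mural cells, 0.21 and 0.21 over 6 of choroid plexus and ependyma, −0.04 and −0.10 over 5 of hypothalamus and 0.06 and −0.03, a change of sign, over 3 of midbrain dopamine neurons. Of 6 erythrocyte genes 1 was tested, *Alas2*, at 0.24 and 0.16. A single gene of these lists, an endothelial one, had an unadjusted p under 0.05 in the quasi-likelihood test (1 of 6). *Hba-a1*, *Hba-a2* and *Hbb-b1* were at 0.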

Additional observations from a re-analysis of the deposited data

Results flagged for a closer look

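For the 36 members and 5 named neighbours, each genotype's 8 mice were searched for a mouse far from the others, relative to the range of its group. Chance alone gives such a mouse in about 1 in 20 groups. Among the members this found 22 of 72 groups, 18 of them through Line 4a mouse 1 and 4 through B6 mouse 8. The search covered these named genes only. Over all genes tested, these mice had the highest or lowest value of their genotype for 73.8% and 52.2%.

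Line 4a mouse 1 lay far above the other Line 4a mice for *Hnrnpab* at 126 CPM, *Nhp2* at 45.4, *Rmnd5b* at 56.4, *Sar1b* at 79.4, *Ube2b* at 238, *Ppp2ca* at 432, *Skp1a* at 491, *Vdac1* at 700, *Uqcrq* at 139, *Kif3a* at 222, *Slc22a5* at 22.7 and *Pdlim4* at 12.2 CPM. It lay far below them for *Adamts2* at 2.32 CPM, *Zfp354c* at 35.6, *Phf15* at 70.0, *Fstl4* at 4.77, *Hspa4* at 211 and *Aff4* at 166 CPM. Of the neighbours, it was far above for *Irf1* at 19.5 CPM and *9530068E07Rik* at 100 CPM.

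B6 mouse 8 lay far below the other B6 mice for *Clk4* at 48.0 CPM, *Sec24a* at 30.3 and *P4ha2* at 7.89, and far above them for *Ppp2ca* at 433 and *9530068E07Rik* at 102 CPM. For *2610507I01Rik* of the distal segment, Line 4a mouse 6 stood apart at 24.3 CPM. The cause was not tested.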

How the results depend on the processing

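The 29 alternatives kept the direction of *9230009I02Rik*, *Zfp354c*, *Phf15*, *Clk4* and *Pdlim4*. The count of members at an unadjusted p under 0.05, 5 as reported, was 2 with the cortical score as a covariate (3.18% of all genes), 2 within lanes 5 and 6 (3.2%), 9 without Line 4a mouse 1 and B6 mouse 8 (12.8%; chosen after seeing the data) and 2 to 7 when single mice were left out. The count at an FDR of 20% was 0 by edgeR's quasi-likelihood test, beside those 5, where 3 of all genes passed. It was 1 with DESeq2 and with the likelihood ratio test, where 264 and 186 of all genes passed. RLE normalization and a minimum of 10 counts in all 16 mice also gave 1, each with 4 of all genes. So did the lane pair as a term and no filter on low counts, again each with 4 of all genes. The count was 2 without that pair of mice (14 of all genes). When single mice were left out it was 0 to 1 (1 to 114 of all genes). The members with a lower mean numbered 15 to 23 and their median log2 fold change was −0.06 to 0.02. The labels give no pairing of mice by replicate number. Deviations of mice of the same number had correlations of −0.115 to 0.364 over genes (median 0.05, against −0.028 for mice of other numbers). Such correlations cannot show whether mice of a number shared a home cage, which the labels do not give. With the number as a block 6 members had an unadjusted p under 0.05 in the quasi-likelihood test, against 8.83% of all genes. There 22 members had lower means and the median log2 fold change was −0.011. With RLE normalization, the sign turned for *Rufy1* (−0.001). With the cortical score as a covariate, the sign turned for *Rufy1* (−0.049), *Zfp354a* (0.015), *Zfp354b* (0.005), *Hnrnpab* (0.035), *Rmnd5b* (0.040), *Ube2b* (0.095), *Cdkn2aipnl* (0.022), *Ppp2ca* (0.023), *Tcf7* (−0.029), *Vdac1* (0.061), *Slc22a4* (−0.036), *P4ha2* (−0.002), *Acsl6* (−0.043). With no filter on low counts, the sign turned for *Rufy1* (−0.001). With the second lane of each mouse alone, the sign turned for *Rufy1* (−0.008), *N4bp3* (0.055). Within lanes 5 and 6, the sign turned for *Rufy1* (−0.023), *Hnrnpab* (0.063), *Rmnd5b* (0.046), *Ube2b* (0.086), *Cdkn2aipnl* (0.019), *Ppp2ca* (0.019), *Vdac1* (0.058), *P4ha2* (−0.080), *Acsl6* (−0.049). Within lanes 7 and 8, the sign turned for *Nhp2* (−0.134), *N4bp3* (0.025), *Sec24a* (0.031), *Sar1b* (−0.117), *Skp1a* (−0.081), *Zcchc10* (−0.020), *Uqcrq* (−0.083), *Sept8* (0.046). Without Line 4a mouse 1 and B6 mouse 8, the sign turned for *Nhp2* (−0.021), *N4bp3* (0.037), *Sar1b* (−0.075), *Skp1a* (−0.071), *Uqcrq* (−0.056), *Sept8* (0.010), *P4ha2* (−0.018). With upper-quartile normalization, the sign turned for *N4bp3* (0.004), *Sec24a* (0.003), *Ube2b* (0.010), *Vdac1* (0.006), *Sept8* (0.001). With the replicate number as a block, the sign turned for *Sar1b* (−0.010), *Skp1a* (−0.008). Leaving out single mice also turned signs, with values of −0.014 to 0.016 for *Rufy1*, −0.060 to 0.078 for *Nhp2*, −0.050 to 0.028 for *N4bp3*, −0.043 to 0.007 for *Sec24a*, −0.099 to 0.031 for *Sar1b*, −0.083 to 0.020 for *Ube2b*, −0.096 to 0.015 for *Cdkn2aipnl*, −0.091 to 0.028 for *Skp1a*, −0.082 to 0.018 for *Vdac1*, −0.065 to 0.112 for *Uqcrq*, −0.024 to 0.022 for *Sept8*, −0.026 to 0.069 for *P4ha2*, −0.001 to 0.037 for *Acsl6*. The cause was not tested. Members of low level, such as *9230009I02Rik* with 23 to 102 counts per mouse, are limited by depth.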
